A study of Sus scrofa with 12 samples.

Results

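The comparison described here sets the small intestine of piglets weaned for 3 days against that of piglets still suckling, across the known microRNAs of the pig. It rests on 6 of the 12 small RNA libraries of the series: 3 labelled Feeding (Big white piglets past 21 days of age, still at the breast) and 3 labelled Weaning2 (Big white piglets past 21 days of age, weaned for 3 days). The other 6 libraries, 3 labelled Weaning1 (weaned for 1 day) and 3 labelled Weaning3 (weaned for 7 days), entered the fit and are used here only to place a microRNA in the course of weaning. No genotype or treatment beyond weaning is given. The segment of intestine, the age at sampling, the sex and the litter of the piglets are not in the labels, nor is it said that each library is a separate animal. Age and days since weaning therefore cannot be told apart, and the p-values measure only the spread between libraries. The study was set up to look for effects of weaning on gene expression.

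MicroRNAs are short RNAs cut from hairpin precursors; each hairpin can give a 5p and a 3p arm, and a loaded arm guides Argonaute proteins to messenger RNAs, which are then repressed. Many are typical of a cell type, so that in a whole tissue their levels depend on the mix of cells as well as on each cell's expression. Weaning ends the supply of milk and is known in pigs for a passing shortening of the villi, a leakier barrier and local inflammation during the first days.

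Library totals ran from 26234489 to 26801227 counts among the 6 libraries. Named small RNAs received 14941893 to 21031457 of these, and known microRNAs 12207143 to 17705767. The remainder, reads counted only as exon, intron or intergenic, took 19.96% to 43.18% of a library, and it was largest in 1 library of each group, Feeding replicate 2 and Weaning2 replicate 1. In Weaning3 replicate 1, which shares the fit, it took 62.17%. In all, 330 known microRNA names were counted in the 6 libraries, 310 to 316 of them in any 1 library. The filter on low counts kept 295 of the known names in the table and left 42 untested. Levels are normalised CPM, that is counts scaled to the library's named small RNA counts and TMM factors, and values for 3 libraries stand in the order of replicates 1, 2 and 3, a numbering that follows the order of the samples and pairs nothing. Differences are on the log2 scale, Weaning2 minus Feeding, with their standard error (SE) or 95% confidence interval.

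The labelled tissue carried its typical microRNAs at high levels in both groups. The gut epithelial miR-194b-5p and miR-192 were the most abundant known microRNAs, the liver microRNA miR-122 stayed between 13.3 and 29.07 CPM, and the pancreatic miR-216 at or under 0.5264 CPM in all 6 libraries. The names miR-223 (myeloid cells), miR-375 (enteroendocrine cells), miR-141 and miR-200 (epithelium) were looked for but are not among the known names the authors listed. Their levels are therefore not known. Known microRNAs took 59.55% ± 9.3 of all counts in Feeding and 58.97% ± 10.94 in Weaning2 (SD, n = 3). The difference of -0.583 percentage points was smaller than the spread between libraries (exact permutation test, two-sided, p = 0.9, with 0.1 the smallest p that 20 relabelings allow).

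No known microRNA separated the groups at the threshold used. With edgeR's quasi-likelihood test, 0 of 2453 named small RNAs and 0 of 295 known microRNAs (0%) had a Benjamini-Hochberg adjusted p under 0.05, and 13 known microRNAs (4.41%) had an unadjusted p under 0.05, 7 higher (2.37%) and 6 lower (2.03%) after 3 days. limma gave 0 known microRNAs and DESeq2 gave 2, which were miR-490-5p and miR-671-5p. The 24 microRNAs of smallest p named below, 12 in each direction, all had an edgeR adjusted p of 0.565, so their values are given as levels and differences, not as changes. The spread was wide. Over all named small RNAs the biological coefficient of variation came to 129.02%. In simulated data of that spread the test called 6.85% of 73 small RNAs altered 4-fold and 44.83% of 87 altered 64-fold. These were drawn from all named small RNAs, not from known microRNAs alone, and altered ones that the filter dropped are not counted. Fitted alone, the known microRNAs had a coefficient of variation of 45.81%, and in simulated data for that fit 80% of 15 altered 4-fold were called. That fit also called 0 of 295, with 27 at an unadjusted p under 0.05 and a smallest adjusted p of 0.201.

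The microRNA profile as a whole differed little. The log2 difference lay within 1 unit for 269 of the 295 tested (91.19%) and for 95.56% of the 135 with an average of at least 100 CPM. The 6 outside that range were miR-676-3p, miR-874, miR-1249, miR-1285 and miR-215 on the lower side and miR-23b on the higher. The median difference was -0.05, with 45.4% higher and 54.6%, or 161 microRNAs, lower. With only small RNAs of at least 10 CPM in 3 or more libraries, 31.25% were higher and the median was -0.18. All 3 Weaning2 libraries lay above all 3 Feeding libraries for 19 known microRNAs (6.44%) and below them for 28 (9.49%), together 47 (15.9%). For any microRNA, a share of 0.1 of the 20 relabelings of the 6 libraries sets the groups fully apart, above or below. A lack of overlap is thus not rare by itself. In a principal component analysis of the 6 libraries the first component held 34.48% of the variance and separated the groups, with Feeding at -3.3, -2.47 and -7.66 and Weaning2 at 4.08, 7.62 and 1.73. The second held 25.04% and set Feeding replicate 1 apart, at 8.2 against -4.17 to 2.27 in the other 5 libraries, so the differences of the microRNAs of smallest p and of the gut epithelial ones are also given without it where they turn sign or move by over 1.5 times.

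**Figure D1:**
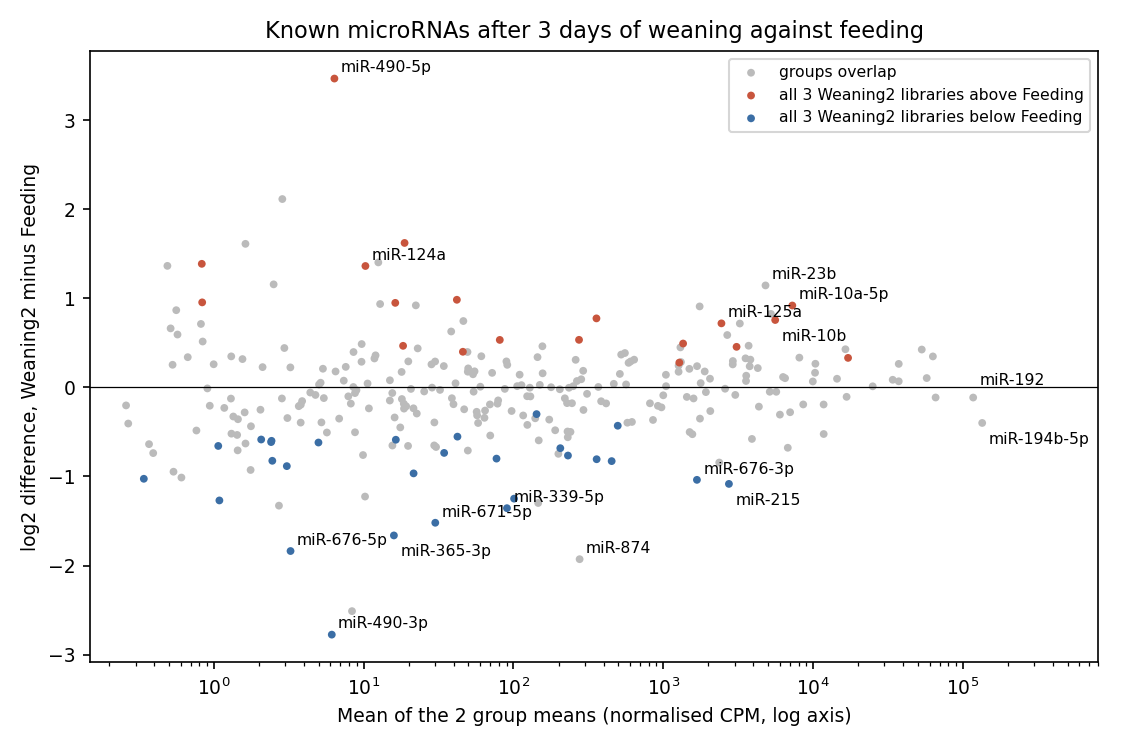
Each point is 1 of 295 known microRNAs, with the mean level of the 2 groups in normalised CPM (log axis) against the log2 difference, Weaning2 minus Feeding; colours mark the 19 microRNAs whose 3 Weaning2 libraries all lie above Feeding and the 28 whose libraries all lie below. Most points lie within 1 log2 unit of 0, and the 2 most abundant, miR-192 and miR-194b-5p, lie at -0.11 and -0.40 at the right edge.

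The most abundant microRNAs stood at like levels in both groups, with intervals that still allow sizeable differences. Together the 10 most abundant took 61.96% to 71.03% of all counts on known microRNAs, and the groups overlapped for each of them. MiR-194b-5p stood at 249900, 111400 and 98380 CPM in Feeding and at 112400, 125700 and 110400 CPM in Weaning2. Only Feeding replicate 1 was high, and the log2 difference was -0.40 (95% interval -2.13 to 1.33), which turned to 0.15 without that library. MiR-192, made from the other gut epithelial locus, stood at 154800, 113700 and 97250 CPM against 113200, 121000 and 103800 CPM, a difference of -0.11 (-0.71 to 0.49) that turned to 0.10 without it. Its cluster partner miR-194a stood at 71790, 42230 and 22240 CPM against 50000, 78900 and 54010 CPM, with a difference of 0.42 ± 0.77 (SE), and 0.92 without it. Here the 3 Feeding libraries differed among themselves by more than the group means did.

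The other abundant microRNAs are made in many cell types. The log2 difference was -0.11 (95% interval -0.54 to 0.32) for miR-191, 0.35 (-0.15 to 0.84) for miR-26a, and 0.09 (-0.41 to 0.58) for let-7a, a family that restrains proliferation. MiR-21, which is raised in many injured and inflamed tissues, stood at 44350, 61260 and 60380 CPM in Feeding and 42790, 59580 and 76100 CPM in Weaning2, a difference of 0.10 (-1.28 to 1.49), or -0.03 without Feeding replicate 1. For miR-92a it was 0.26 ± 0.28, for the smooth muscle microRNA miR-143-3p 0.07 ± 0.55 and for miR-181a 0.01 ± 0.53. The sign of this last value, and of those near 0.00 for miR-96-5p, miR-127, miR-128 and miR-9, depends on the scaling of the libraries.

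MicroRNAs of the HOX clusters were higher in level after 3 days. These hairpins lie among the HOX genes, which set position along the body axis, and their levels are known to differ between segments of the gut. MiR-10a-5p stood at 5045, 4800 and 5256 CPM in Feeding and at 7684, 11730 and 9136 CPM in Weaning2. The Feeding libraries lay close together and every Weaning2 library was above them, 1.89-fold on average, with a log2 difference of 0.92 ± 0.31 (SE). The other arm of that hairpin (chromosome 12, 24833644 to 24833723), miR-10a-3p, was far scarcer, at 24.02, 33.61 and 26.85 against 35.38, 84.99 and 46.64 CPM. It too did not overlap, with a difference of 0.98 ± 0.45, which was 0.54 without Weaning2 replicate 2. MiR-10b, from another HOX cluster (chromosome 15, 81951644 to 81951723), stood at 3575, 3839 and 5062 CPM against 5595, 7682 and 7793 CPM, a difference of 0.76 ± 0.26 with no overlap.

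MiR-10a and miR-10b are nearly alike in sequence, and the rule by which a read matching both was counted is not given in the sources used here. Their summed level, a sum chosen after the values were seen, is free of that rule only if each such read was counted once. It would not be if such reads were dropped or counted under both names. The sum of miR-10a-5p and miR-10b was 8620, 8639 and 10320 CPM in Feeding and 13280, 19410 and 16930 CPM in Weaning2. Every Weaning2 library was again above every Feeding library, at a ratio of means of 1.8. The other tested members of the list were miR-196a (213.2, 1710 and 1727 against 646.2, 4384 and 1821 CPM), miR-196b-5p and miR-615. For miR-196a and miR-196b-5p, Feeding replicate 1 and Weaning2 replicate 1 were the low libraries of their groups, and the groups overlapped. Their sum was 416.1, 3804 and 2734 CPM against 1270, 6679 and 3411 CPM, also with overlap. The difference of miR-196a, 0.91, was 0.42 without Feeding replicate 1 and 0.02 without Weaning2 replicate 2. In all, 6 of 6 tested HOX cluster microRNAs were higher, where 45.4% of all known microRNAs were, and 3 of 6 were above without overlap, where 6.44% were. Those 3 are both arms of miR-10a and the nearly alike miR-10b, so they are not independent. The median log2 difference of the 6 was 0.83 against -0.05 for all known microRNAs tested. That median lay between 0.28, without Weaning2 replicate 2, and 1.06 under the alternatives run.

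MicroRNAs of the miR-99, miR-100 and miR-125 families, which are encoded beside let-7 genes at several loci, were also higher in 5 of 5 tested members (45.4% of all known microRNAs), 2 of them without overlap (6.44% of all). The median of 0.33 was 0.07 without Feeding replicate 2. MiR-125a stood at 2083, 1660 and 1806 CPM in Feeding and at 2700, 3010 and 3421 CPM in Weaning2. No library overlapped, and the difference was 0.72 ± 0.27 (SE). MiR-99a stood at 2490, 2439 and 2884 CPM against 3294, 3983 and 3433 CPM, also without overlap. The other 3 members, miR-100, miR-125b and miR-99b, overlapped, with log2 differences of 0.33, 0.31 and 0.31.

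Of 9 tested microRNAs typical of neurons, such as those of the gut wall, 5 were higher and 4 lower, with a median of 0.01. MiR-124a, which marks neurons across vertebrates, was the only one without overlap. It was scarce, at 8.343, 4.858 and 4.068 CPM in Feeding and at 8.757, 17.94 and 17.7 CPM in Weaning2. The lowest Weaning2 library exceeded the highest Feeding library by a small margin, and the log2 difference was 1.36 ± 0.50 (SE). The most abundant neuronal member, miR-128, stood at 1027, 923.1 and 1168 CPM against 829.1, 1070 and 1248 CPM. Its groups overlapped fully.

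MiR-132 and miR-212 are cut from 1 transcript on chromosome 12 that is known in rodents to be induced by neuronal activity and by the transcription factor CREB. MiR-132 stood at 11.1, 10.04 and 12.15 CPM in Feeding and at 17.86, 16.29 and 30.13 CPM in Weaning2, all above Feeding. Its log2 difference was 0.95 ± 0.55 (SE), and 0.63 without Weaning2 replicate 3. For miR-212, at 0.6055, 1.51 and 1.101 against 0.7645, 4.962 and 8.251 CPM, replicate 1 of Weaning2 lay within the Feeding range. The difference was 2.11 ± 0.94, and 1.17 by limma, whose pseudocount of 1 shrinks low levels.

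The hairpin miR-490 gave the largest differences in each direction, on very low counts. It lies within CHRM2, the gene of a muscarinic acetylcholine receptor of smooth muscle, on chromosome 18 from 12568196 to 12568274. MiR-490-5p had 20, 19 and 12 counts in Feeding and 159, 357 and 26 counts in Weaning2. In CPM these were 1.346, 1.247 and 0.5742 against 11.05, 22.71 and 1.358, so Weaning2 replicate 3 was barely above the highest Feeding library while the other 2 were far above. The log2 difference was 3.47 (95% interval 1.19 to 5.75), and 2.11 by limma. The name miR-490-3p went the opposite way. MiR-490-3p stood at 5.181, 15.69 and 11.25 CPM in Feeding and at 1.251, 0.06362 and 3.342 CPM in Weaning2, below Feeding in every library, with a difference of -2.77 (-6.0 to 0.45). In the Weaning1 libraries miR-490-3p ran from 0.4818 to 85.78 CPM, so its spread within a group elsewhere in the series was far wider than within either group here. The table holds one more name for this hairpin, miR-490 with no arm, which was chosen for mention after its values were seen. It stood at 16.89, 3.085 and 0.67 CPM in Feeding and at 19.88, 23.92 and 10.76 CPM in Weaning2, with overlap and a difference of 1.40 ± 0.98 (SE). How reads were split among these names is not known. The sum of miR-490 and miR-490-3p was 22.07, 18.77 and 11.92 CPM against 21.13, 23.98 and 14.1 CPM, which overlapped. The low value of miR-490-3p after 3 days is thus not seen in that sum. Which arm the name without an arm stands for was not settled here. Summed with miR-490-5p instead, it was 18.24, 4.332 and 1.244 CPM against 30.93, 46.63 and 12.12 CPM, at a ratio of means of 3.766 and also with overlap. The sum of all 3 names was 23.42, 20.02 and 12.49 CPM against 32.18, 46.69 and 15.46 CPM, also with overlap.

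Of 8 tested microRNAs of the miR-23, miR-24 and miR-27 clusters, 5 were higher and 3 lower (median 0.19), all with overlap. MiR-23b stood at 5391, 2062 and 1550 CPM in Feeding and at 4907, 8381 and 6613 CPM in Weaning2, where only Feeding replicate 1 lay within the Weaning2 range. The log2 difference was 1.14 ± 0.61 (SE), and 1.88 without that library. MiR-23a and miR-23b are near-identical. Their sum, again a sum chosen after the values were seen, was 14140, 11700 and 11430 CPM against 13610, 22920 and 17330 CPM, which overlapped.

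The remaining microRNAs of smallest p on the higher side differ in origin. MiR-204, encoded within the ion channel gene TRPM3, stood at 277.2, 328.5 and 187.4 CPM in Feeding and at 381.8 and 481.8 CPM in Weaning2 replicates 1 and 2, replicate 3 being higher still, with no overlap and a log2 difference of 0.77 ± 0.43 (SE). MiR-139-5p, encoded within the phosphodiesterase gene PDE2A, stood at 3225, 2228 and 1916 CPM against 3887, 5681 and 2541 CPM. It overlapped, and its difference of 0.72 ± 0.41 was 0.38 without Weaning2 replicate 2. MiR-451, the main microRNA of red blood cells, stood at 2271, 1329 and 2816 CPM against 3365, 3596 and 2678 CPM. It overlapped too, and its difference of 0.59 ± 0.32 was 0.22 without Feeding replicate 2. The other red cell microRNAs, miR-144 and miR-486, were at -0.74 and -0.05, so the 3 members had a median of -0.05. MiR-4334-3p stood at 16.75, 5.842 and 5.025 CPM against 27.04, 35.63 and 22.3 CPM, above Feeding in every library, with a difference of 1.62 ± 0.67, or 2.38 without Feeding replicate 1.

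**Figure D2:**
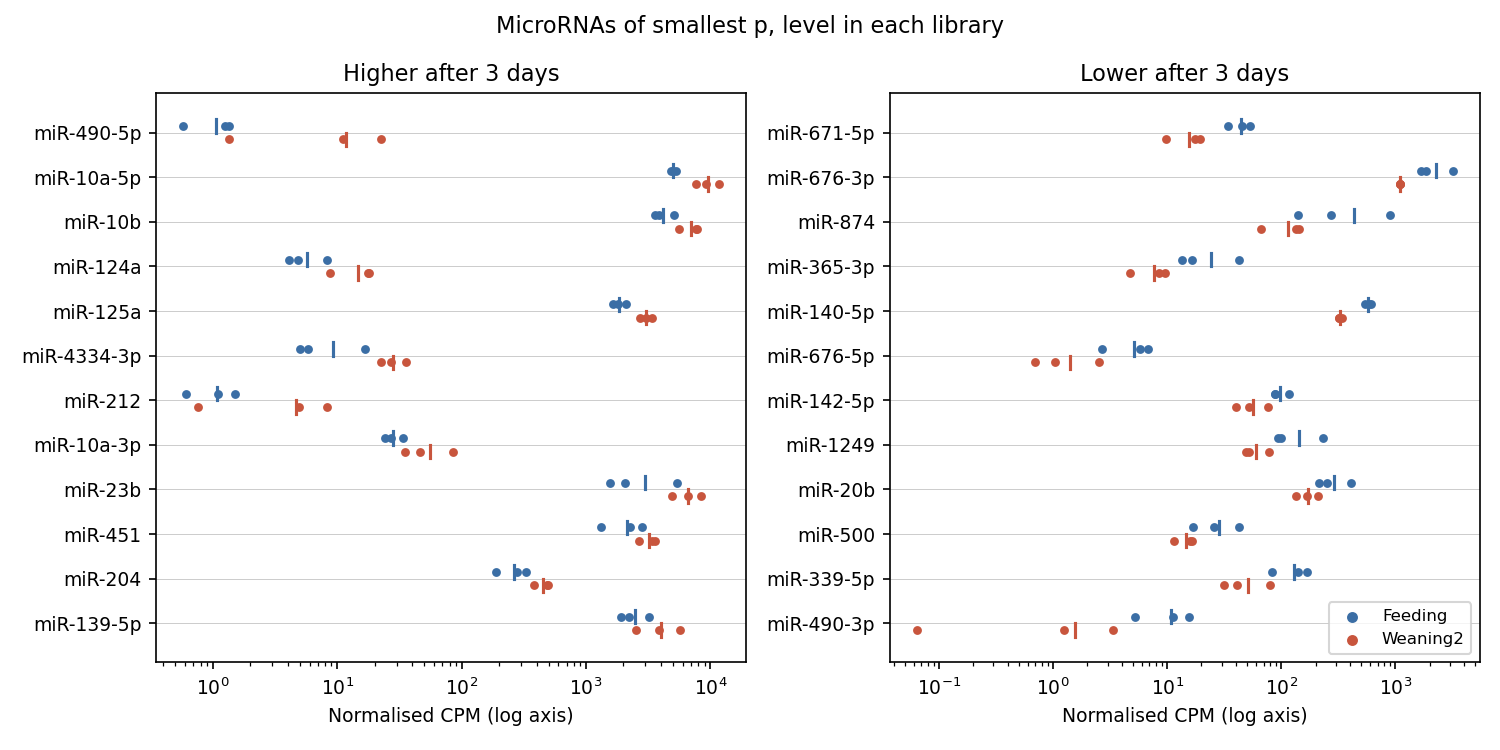
Level in each library (points; normalised CPM, log axis) of the 12 higher and the 12 lower known microRNAs of smallest p, Feeding in blue and Weaning2 in red, with a bar at each group's mean of 3 libraries. The groups are apart for most rows but overlap for miR-212, miR-23b, miR-451, miR-139-5p and miR-874, and none of the 24 passed the threshold (edgeR adjusted p = 0.565).

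On the lower side, both arms of miR-676 lay below Feeding in every library. This hairpin lies on chromosome X from 56083372 to 56083451, within EDA, which encodes a ligand of ectodermal development. MiR-676-3p stood at 3205, 1697 and 1871 CPM in Feeding and at 1090, 1106 and 1103 CPM in Weaning2. The Weaning2 libraries hardly differed, and the log2 difference was -1.04 ± 0.33 (SE), or -0.70 without Feeding replicate 1. MiR-676-5p, the scarce arm, stood at 6.728, 2.691 and 5.838 CPM against 1.043, 0.6998 and 2.507 CPM, a difference of -1.84 ± 0.77. Feeding replicate 1 was the highest library for both arms, and without it the scarce arm stood at -1.58.

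MiR-671-5p (chromosome 18, 5989378 to 5989457) had the smallest p of all known microRNAs. It is known in human and mouse brain for directing the cleavage of the circular RNA CDR1as. It stood at 34.45, 45.62 and 53.74 CPM in Feeding and at 17.58, 9.861 and 19.22 CPM in Weaning2, a difference of -1.52 (95% interval -2.50 to -0.54) with no overlap. Its other arm was at -0.34 ± 0.67 (SE).

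MiR-874, which in mouse and human cells is reported to repress the water channel gene AQP3, had its largest value in 1 Feeding library. It stood at 900.6, 139.6 and 274.1 CPM in Feeding and at 115.1 ± 42.23 CPM in Weaning2 (SD, n = 3), with a highest library of 142.8 CPM. The groups overlapped, and the log2 difference of -1.93 ± 0.63 (SE) was -0.85 without Feeding replicate 1. Feeding replicate 1 was the highest Feeding library for 7 of the 12 microRNAs of smallest p on the lower side, namely both arms of miR-676, miR-874, miR-140-5p and the 3 that follow. MiR-365-3p stood at 42.66, 13.59 and 16.37 CPM against 9.661, 4.708 and 8.565 CPM, with a difference of -1.66 ± 0.60 that was -0.97 without that library. MiR-1249 stood at 234.3, 93.67 and 98.63 against 49.35, 51.91 and 78.23 CPM (-1.25 ± 0.60, and -0.68 without it). MiR-500, encoded on chromosome X, stood at 42.79, 16.94 and 25.79 against 16.4, 15.9 and 11.49 CPM (-0.97 ± 0.49, and -0.55 without it). These last 3 did not overlap, and Weaning2 was below Feeding also without that library.

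Among microRNAs of connective tissue cells the members did not go 1 way. MiR-140-5p, encoded within WWP2 and best known from cartilage, stood at 610.7, 538.1 and 588.2 CPM in Feeding and at 319.1, 320.5 and 339.2 CPM in Weaning2. Both groups were tight and apart, and the log2 difference was -0.83 ± 0.33 (SE), or -0.79 without Feeding replicate 1. The fibroblast microRNAs miR-199a-5p and miR-199b-5p stood higher instead. MiR-199a-5p was at 1307, 1087 and 990.3 CPM against 1339, 1974 and 1447 CPM and did not overlap, nor did miR-199b-5p. The partner miR-214 was at -0.40 with overlap. The names miR-199a-3p and miR-199b-3p stand for near-identical sequences and traded places between Feeding libraries. In replicate 2 miR-199a-3p was at 872.3 and miR-199b-3p at 6456 CPM, while in replicate 1 they were at 4942 and 1312 CPM. Their sum was 6254, 7328 and 6865 CPM in Feeding and 6777, 9403 and 8966 CPM in Weaning2, with overlap, so neither single value is read here. Leaving out both of these names, 2 of 5 tested members were higher and 3 lower (median -0.40).

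MicroRNAs of leukocytes were lower in 4 of 4 tested members (54.6% of all known microRNAs), 1 of them without overlap (9.49% of all), with a median of -0.66 that lay between -0.95 and -0.26 under the alternatives run. Those 4 include both arms of the miR-142 hairpin, which are not independent. In whole tissue, fewer cells of a type and less RNA per cell cannot be told apart. MiR-142-5p, from a hairpin active in blood-forming cells, stood at 87.53, 88.09 and 118.2 CPM in Feeding and at 52.33, 40.46 and 75.99 CPM in Weaning2. It did not overlap, with a log2 difference of -0.80 ± 0.37 (SE). Its other arm, miR-142-3p, stood at 162.8, 191.8 and 395.5 against 112.5, 97.08 and 237.7 CPM, where Weaning2 replicate 3 lay within the Feeding range. MiR-150, the microRNA of mature lymphocytes, stood at 4898, 3563 and 5591 against 5500, 1423 and 2487 CPM. Weaning2 replicate 1 was as high as Feeding and the other 2 were below. The log2 difference of miR-150 was -0.58 ± 0.42 (SE). Among known microRNAs alone it was -1.34 without Weaning2 replicate 1 and -0.03 without Weaning2 replicate 2. MiR-342 differed least, at 992.1, 867.7 and 1103 against 823, 863 and 880.2 CPM.

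The inflammation list, beside miR-21 and miR-132 above, held no member below Feeding in every library. Of its 7 tested members 5 were higher and 2 lower (median 0.13). MiR-146a-5p, a brake on NF-kB signalling, stood at 2757, 3032 and 4468 CPM in Feeding and at 2237, 4575 and 4420 CPM in Weaning2. MiR-155-5p, induced in activated leukocytes, stood at 645.6, 875.7 and 1365 against 506, 931.6 and 802.5 CPM. MiR-31, known from repair of the gut epithelium in mice, stood at 3463, 2915 and 1577 against 2574, 4069 and 2868 CPM. For these 3 the groups overlapped and the log2 differences were 0.13, -0.37 and 0.26.

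The gut epithelium list had 1 member without overlap. MiR-215, which is encoded with miR-194b on chromosome 10 and is known in human cells to be induced by p53, stood at 5098, 2864 and 3228 CPM in Feeding and at 2011, 1600 and 1671 CPM in Weaning2. Every Weaning2 library was below every Feeding library, but the fit over 4 groups gave a difference of -1.08 with a 95% interval of -3.34 to 1.17, since miR-215 varied widely in the other groups. Of the 5 tested members 1 was higher and 4 lower, with a median of -0.40 that turned to 0.10 without Feeding replicate 1. MiR-194a and miR-194b-5p are near-identical, and their sum was 321700, 153600 and 120600 CPM against 162400, 204600 and 164400 CPM, which overlapped. MiR-429, a microRNA of epithelium in general, stood at 5426, 7728 and 5673 against 6257, 8103 and 5862 CPM, likewise with overlap.

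The clusters of miR-17-92 and its paralogs, which promote cell cycle entry, were lower in 11 of 13 tested members (54.6% of all known microRNAs), with a median of -0.18. Of the 13, 2 were below without overlap, as were 9.49% of all. MiR-20b, from the paralog on chromosome X, stood at 213.2, 252.9 and 407.3 CPM in Feeding and at 134.1, 168.5 and 211.3 CPM in Weaning2. It did not overlap, and its log2 difference of -0.77 ± 0.38 (SE) was -0.44 without Feeding replicate 3. MiR-17-5p stood at 496.9, 511.4 and 703.6 against 414.9, 435.4 and 420 CPM, also without overlap. The 2 abundant members, miR-92a and miR-363, stood at 0.26 and -0.08. The median of the list stayed below 0 under the alternatives run, from -0.42 to -0.01.

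MicroRNAs that are abundant in milk, whose supply ends at weaning, overlapped in all 7 tested members, of which 2 were higher and 5 lower (median -0.33). MiR-22-3p stood at 18190, 10210 and 13290 CPM in Feeding and at 7569, 9037 and 12390 CPM in Weaning2, a difference of -0.52 that was -0.28 without Feeding replicate 1, and miR-148a-3p at 128.2, 170.4 and 234 against 126.2, 83.34 and 143.1 CPM. Of the miR-29 family, which represses collagen genes, 3 of 3 were lower (54.6% of all known microRNAs), 1 of them without overlap (9.49% of all). That was miR-29c, at 221.5, 228.3 and 310.1 against 142.6, 138 and 192.9 CPM. MiR-29a and miR-29b stood at only -0.05 and -0.13 with overlap, and their signs changed in 4 and 5 of the alternatives run. MiR-210, the microRNA of hypoxia, stood at 25.84, 43.98 and 38.67 against 15.43, 23.6 and 30.03 CPM, with overlap and a difference of -0.65. Another scarce microRNA, miR-339-5p, stood at 83.56, 167.1 and 139.9 against 31.69, 41.16 and 79.75 CPM, just without overlap, and at -1.36 ± 0.70 (SE). Summed with the name miR-339 of the same hairpin it was at 128.3, 225.5 and 187.7 against 66.02, 75.32 and 114.1 CPM, still without overlap.

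Most other lists of 3 or more tested members had medians near that of all known microRNAs. Of 9 tested muscle microRNAs 4 were higher and 5 lower (median -0.01), and of 13 from the imprinted DLK1-DIO3 cluster 5 were higher and 8 lower (-0.06). The let-7 family was higher in 6 of 9 (0.07), the miR-30 family in 5 of 10 (-0.02), the miR-15 and miR-16 family in 4 of 5 (0.03) and the miR-181 family in 3 of 5 (0.01). MiR-182, miR-183 and miR-96, a cluster of sensory and epithelial cells, were higher in 3 of 3 (0.24), all with overlap, and 2 of 3 of miR-221 and miR-222 were lower (-0.31), which lay further out. Among lists of 1 or 2 tested members, both of the miR-378 family were higher (median 0.36, turning to -0.09 without Weaning2 replicate 2). Their sum was 18910, 17000 and 14060 CPM in Feeding and 16640, 35840 and 13800 CPM in Weaning2, so only that library was high. MiR-7 of enteroendocrine cells stood at -0.35, and miR-122 and miR-216 of liver and pancreas had a median of -0.43. The endothelial arms miR-126-3p and miR-126-5p stood at 0.10 and -0.30, and miR-34a and miR-34c, linked to p53, at 0.10 and -0.48. MiR-103 and miR-107 stood at 0.18 and -0.12.

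**Figure D3:**
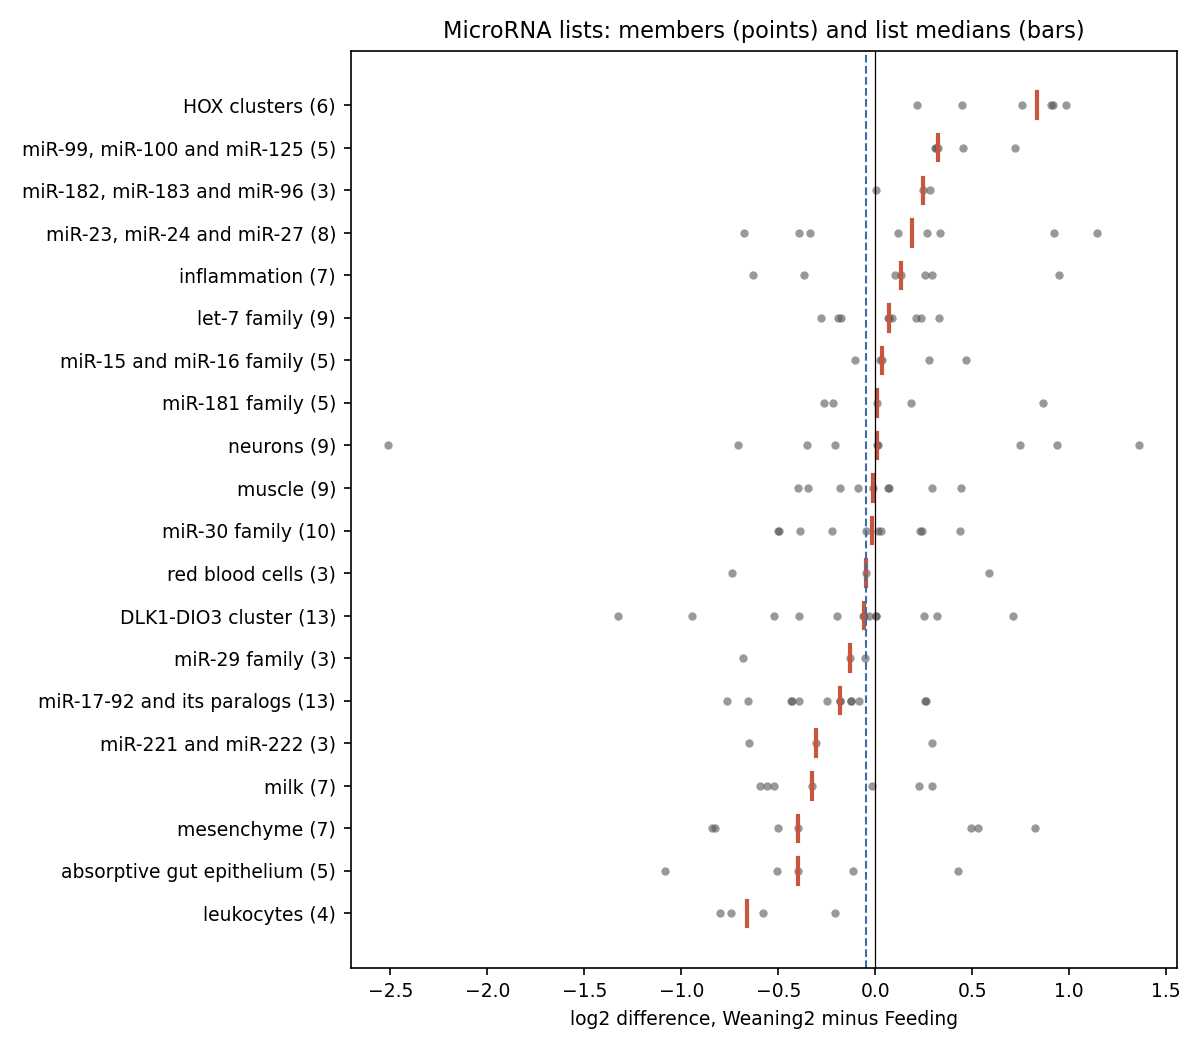
Each point is a tested member of a microRNA list and each bar the median of the list, on the log2 difference, Weaning2 minus Feeding; the number of tested members stands in brackets, and the dashed line marks the median of all 295 known microRNAs, -0.05. The HOX cluster list lies highest (median 0.83) and the leukocyte list lowest (-0.66), while most lists spread across 0.

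The arms of a hairpin did not always go together. Both arms of 58 hairpins were tested, and in 30 of these the log2 differences had the same sign. Both arms were above Feeding in every library only for miR-10a, and below only for miR-676. In 10 hairpins the arms differed by more than 1 log2 unit, led by miR-490 with a gap of 6.24. Next came miR-339 (-1.36 for the 5p arm and 0.49 for the 3p arm) and miR-365 (0.08 and -1.66), and in 9 of the 10 the scarcer arm was under 10 CPM. MiR-490 and miR-339 are the 2 hairpins that also have a tested name with no arm, so their gaps depend on how reads were split among 3 names.

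Hairpins that lie close together are often cut from 1 transcript. A precursor was found in the RefSeq annotation of Sscrofa 11.1 for 313 known microRNAs. Precursors were matched by name, which can miss further copies. Tested microRNAs matched to a single precursor, no more than 10 kb apart, formed 27 clusters with at least 2 tested members. Names matched to more than 1 precursor, such as miR-92a and miR-19b, were left out of the clusters. MiR-24-3p was kept beside miR-23a on chromosome 2 by its match to MIR24-1, although MIR24-2 is annotated on chromosome 10. Let-7a and let-7f were matched to MIRLET7A-1 and MIRLET7F-1 alone, and further copies were not checked. In 13 clusters every member so counted had the same sign, 6 higher and 7 lower. MiR-96-5p, in 1 of the higher ones, stood at 0.00 with a sign that depends on the scaling. The clusters named here were chosen after their values were seen. The higher ones included let-7c with miR-99a (chromosome 13, 181302483 to 181303302), where both members were without overlap, and let-7e with miR-99b and miR-125a (chromosome 6, 58331566 to 58332280). Also among them were let-7a with miR-100 on chromosome 9 and miR-132 with miR-212 on chromosome 12. Of the 7 lower clusters 4 lie on chromosome X, which holds 7 of the 27 clusters; its other 3 went both ways. The 4 lower ones hold miR-106a, miR-18b, miR-20b and miR-363, miR-362, miR-500 and miR-532, miR-374a and miR-545, and let-7f with miR-98. MiR-92a and miR-19b, at 0.26 and -0.18, also have a precursor within the first of these 4. With miR-92a counted, that cluster would not be lower in every member.

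**Figure D4:**
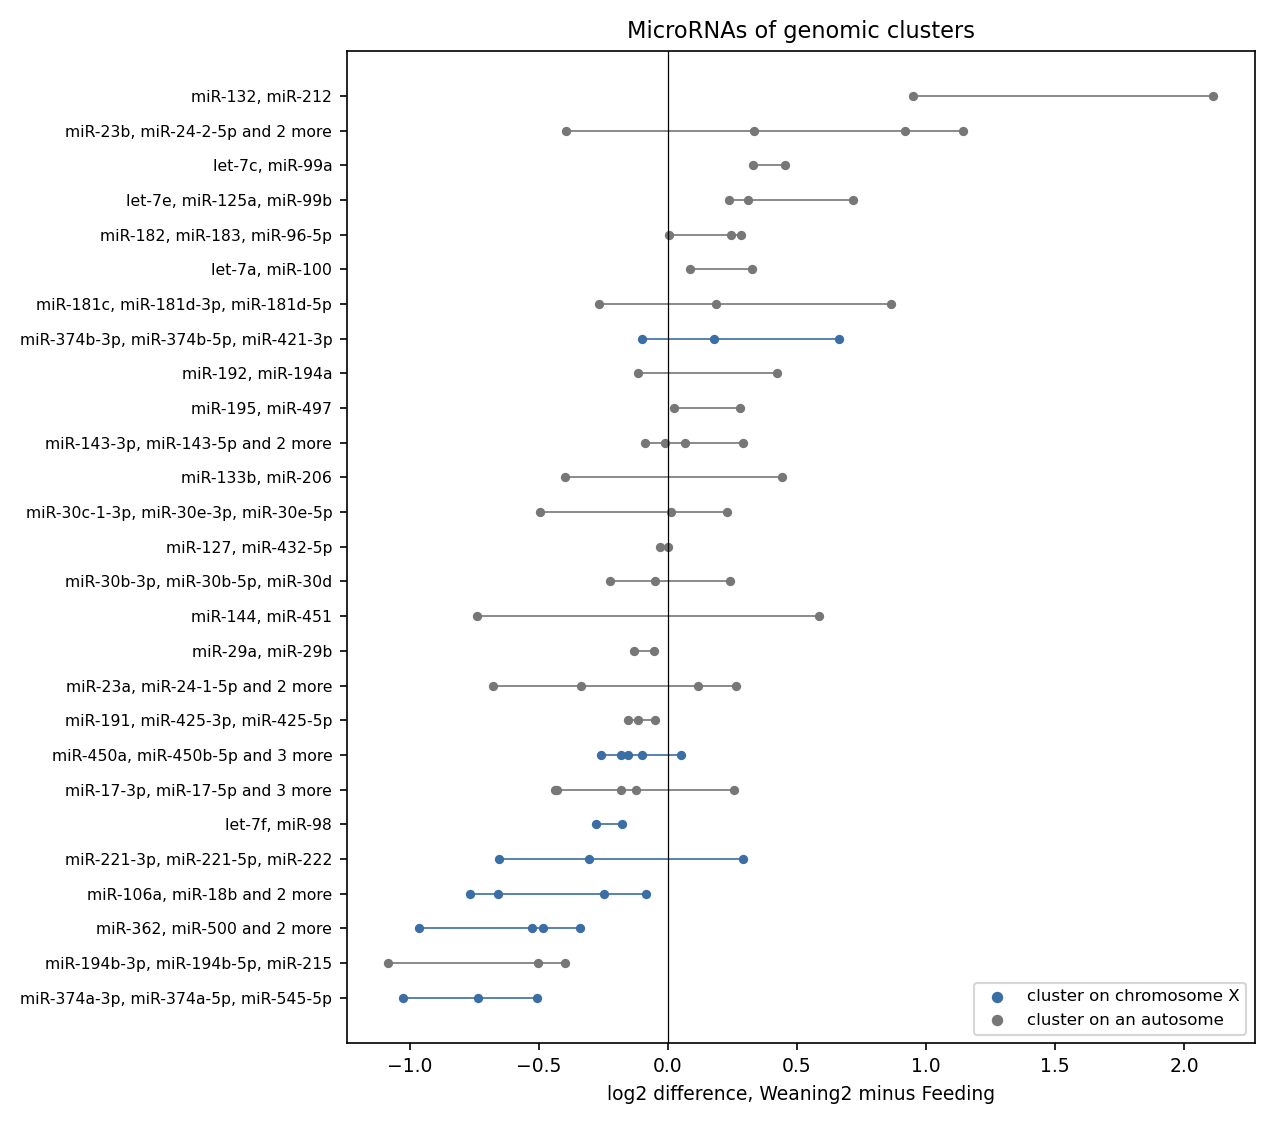
Each row is a genomic cluster of known microRNAs (precursors no more than 10 kb apart), and blue rows lie on chromosome X. Points are tested members matched by name to a single precursor, on the log2 difference, Weaning2 minus Feeding. All points lie below 0 in 7 clusters, of which 4 are among the 7 clusters of chromosome X. In 6 clusters, none of them on chromosome X, all points lie above 0.

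Over all of chromosome X, 26 of 34 tested microRNAs (76.47%) were lower after 3 days, against 116 of 228 (50.88%) on the autosomes. The 8 tested names matched to precursors on several chromosomes are in neither count. Names are placed by their matched precursors, so let-7f is among the 34. This grouping was noticed after the values were seen and has no test, and members of a cluster are not independent. Of the 34, 8 were below Feeding in every library and 0 above, with a median of -0.27. On the autosomes 17 were below and 19 above, with a median of -0.00. Single autosomes varied widely, from 36.36% to 84.62% lower among the 12 with at least 10 tested microRNAs. Chromosome 4 was above chromosome X, with 11 of 13 lower (84.62%, median -0.21), and chromosomes 7 and 13 were at 66.67%. The share lower on chromosome X was 64.71% to 85.29% under the alternatives run, and its median stood 0.21 to 0.32 below that of the autosomes. The summed level of the 34 was 24190, 23126 and 27475 CPM in Feeding and 16175, 24502 and 20361 CPM in Weaning2, so that Weaning2 replicate 2 lay within the Feeding range.

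The 1-day and 7-day libraries show how the 3-day level of these microRNAs stands in the series. The microRNAs given were named for the difference between the same Weaning2 libraries and Feeding. Their differences from 1 and 7 days reuse those libraries and are no separate support. No known microRNA of 295 had an edgeR adjusted p under 0.05 between 1 and 3 days or between 3 and 7 days; 15 (5.08%) and 30 (10.2%) had an unadjusted p under 0.05. MiR-676-3p stood at 1213, 968.7 and 1196 CPM after 1 day, like its level after 3 days (log2 difference -0.03 ± 0.32, SE), and at 241.1, 232.9 and 364.2 CPM after 7 days, which was -1.98 ± 0.33 from 3 days. MiR-10b averaged 7801 CPM after 1 day and 7023 after 3 days, and 2657 after 7 days, -1.40 ± 0.26 from 3 days. MiR-10a-5p averaged 7430, 9516 and 4881 CPM at 1, 3 and 7 days. A lower level after 7 days was not particular to these. MiR-192 and miR-26a stood at -1.15 ± 0.28 and -0.79 ± 0.23 from 3 days, while miR-24-3p stood at 1.48 ± 0.63. Known microRNAs took 66.84%, 79.67% and 78.97% of named counts in the Weaning3 libraries, against 82.71% on average in Weaning2.

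For other microRNAs the level stood apart after 3 days and not at the other times. Naming microRNAs for a low level in these Weaning2 libraries favours such a dip, so it is only described here. MiR-671-5p was at 29.75, 42.01 and 35.97 CPM after 1 day and at 37.06, 32.18 and 60.22 CPM after 7 days, so all 9 libraries of the other groups lay above the 3 Weaning2 libraries. Its level after 3 days was -1.21 ± 0.44 (SE) from 1 day. MiR-142-5p averaged 117.5 CPM after 1 day and 87.75 after 7 days against 56.26 after 3 days, and was -1.06 ± 0.37 from 1 day. MiR-20b averaged 372, 171.3 and 311.7 CPM at 1, 3 and 7 days. MiR-140-5p instead averaged 465.4, 326.3 and 304.9 CPM, and miR-124a 11.44, 14.8 and 18.24 CPM, at the 3 times.

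**Figure D5:**
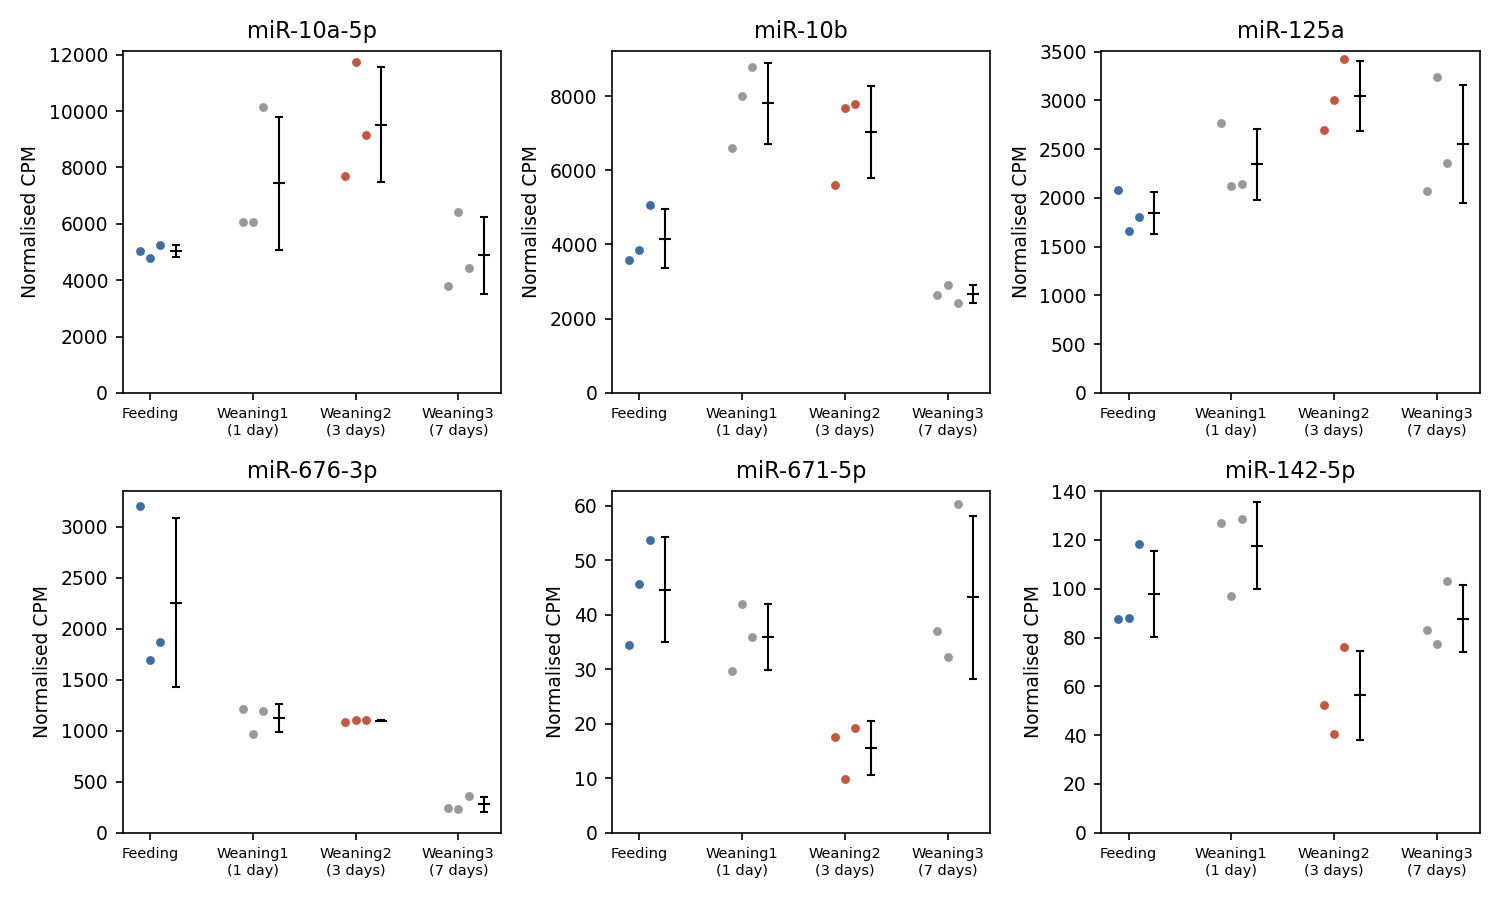
Level of 6 microRNAs (normalised CPM, linear axes from 0) in each of the 12 libraries by group, points for libraries and black marks for the group mean with SD (n = 3). MiR-10a-5p, miR-10b and miR-125a lie higher in Weaning2 than in Feeding, and miR-676-3p, miR-671-5p and miR-142-5p lower, with miR-671-5p lowest in the 3 Weaning2 libraries of all 12.

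MicroRNAs present in 1 group alone were rare. MiR-383 was counted in every Feeding library, with 5 counts in all, and in no Weaning2 library, too few counts to be tested; a count of 0 allows up to 3 counts in a library. No known microRNA was counted in every Weaning2 library and in no Feeding library.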

How the data were processed

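The authors deposited 1 table with a list of small RNA names for each of 12 libraries and, per the file headers, their counts and TPM. The deposited counts are whole numbers, and the deposited TPM equals the library's CPM within 0.005, so only the counts were used. Per the submitters' processing notes the genome build was Sscrofa 11.1; no aligner or counter is given in the sources used here. A name missing from a library was entered as 0, 7 names listed repeatedly in the 6 libraries were summed, and exon, intron and intergenic totals (19.96% to 43.18%) were left out. In edgeR 4.0.16 under R 4.3.3, low small RNAs were dropped with filterByExpr (minimum count 10, minimum total 15), and the rest scaled by TMM and fitted as 4 group means over 12 libraries. The quasi-likelihood test was two-sided, with Benjamini-Hochberg adjustment over 2453 small RNAs and a threshold of 0.05. Alternatives used DESeq2 1.42.0, limma 3.58.1 (pseudocount 1), other scalings and filters, known microRNAs alone and leaving out each library. Shares were compared by exact permutation (scipy 1.17.1, Python 3.11.15). The fit was tested on simulated data. PCR copies are not told apart, so precision covers counting only.

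The microRNAs named are the 12 higher and 12 lower of smallest p, the 10 most abundant, the 6 with the largest difference in each direction among those with at least 10 CPM and no overlap, and, of each list, members named by p and the 3 most abundant. Those counted in every library of 1 group and none of the other, and those past the threshold among known microRNAs alone, were to be named too. Members of genomic clusters, chromosome X, other members of a list and the sums of near-identical names were added after their values were seen. The comparison and the lists of microRNAs were chosen with earlier results of these data known. The lists, by family number, cover cell types, clusters, families and processes, and share no test; mature sequences were not used here. Precursor positions are 1-based, from the RefSeq annotation of the same build.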

Additional observations from a re-analysis of the deposited data

How the results depend on the processing

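The count of known microRNAs past the adjusted threshold stayed at 0 in every alternative but 2. It was 2 by DESeq2 (miR-490-5p and miR-671-5p) and 1 (miR-490-5p) among known microRNAs alone without Weaning2 replicate 3, where leaving out each library in turn otherwise gave 0. Over all named small RNAs the count was 32 by DESeq2, 56 with no filter on low counts and 0 otherwise. Known microRNAs at an unadjusted p under 0.05 numbered 13. They were 23 at a minimum of 10 CPM, 27 among known microRNAs alone, 32 there with only the 6 libraries and 24 with Weaning3 replicate 1 left out. Leaving out each library gave 4 to 15 of these, with 4 without Weaning2 replicate 2, 7 without Feeding replicate 3 and 8 without Feeding replicate 1, and among known microRNAs alone 23, 23 and 17 without Feeding replicates 1, 2 and 3 and 20, 16 and 24 without those of Weaning2. MicroRNAs without overlap numbered 47, 57 to 84 when 1 library was left out where fewer libraries have to be apart. Among known microRNAs alone these were 101, 80 and 66 without Feeding replicates 1, 2 and 3 and 88, 71 and 102 without those of Weaning2. The share of counts on known microRNAs differed by -5.825 to 5.692 percentage points when 1 library was left out, and by 0.187 as a share of named small RNAs.

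Of 2145 comparisons of 98 named microRNAs with 22 alternatives, 2044 counted as unchanged, 3 passed the threshold and 98 moved. For the 26 named by p or size, unchanged meant the same sign and the same side of the threshold. For the 72 named by level or list, it meant a shift smaller than the log2 SD of the Feeding libraries, whatever the sign. Those that moved shifted by at least that SD. None of the 26 named by p or size changed sign, while 38 of the 72 named by level or list did at least once. The 26 were picked from these same libraries for a small p or a large difference without overlap. That choice itself favours a stable sign, so the contrast with the 72 is no sign of robustness. No paired analysis was possible because the labels give no replicate numbers, so nothing ties a library of 1 group to a library of the other. Depth limits miR-490-3p, miR-212 and miR-676-5p, whose lowest libraries held 1, 9 and 11 counts.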
